A study of Mus musculus with 16 samples.

Results

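Collagen transcripts of cartilage were examined in cultured mouse chondrocytes that differed in *Notch2* genotype and in exposure to tumor necrosis factor α (TNFα). The set was named by symbol and holds 10 of the 55414 genes in the count files. *Col2a1*, *Col9a1*, *Col9a2*, *Col9a3*, *Col11a1*, *Col11a2* and *Col27a1* are the 7 cartilage members, and *Col1a1*, *Col1a2* and *Col3a1* are 3 members that stand for the fibroblast side. The cells were chondrocyte-enriched and came from the limb epiphyses of newborn mice of pooled sex. Donors were heterozygous for *Notch2tm1.1Ecan*, a global knock-in that removes the PEST domain of NOTCH2 in every cell of the mouse, or were control littermates labelled as wild type. Cultures received vehicle (PBS) or 50 ng/ml of TNFα, both for 6 h, which gave 4 groups of 4 RNA-Seq libraries: control vehicle, Notch2 vehicle, control TNFα and Notch2 TNFα. The labels number the 4 libraries of a group as biological replicates but do not say how many mice were pooled into each. They give removal of serum for the TNFα groups only, whereas the study's text gives it for both treatments, so that TNFα and serum removal cannot be told apart if the labels are right.

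Fibrillar collagens are secreted as procollagens, folded as trimers, cleaved at their ends and assembled into fibrils that are then crosslinked. In hyaline cartilage the fibril is built mainly of type II collagen, a homotrimer of the *Col2a1* product. Type XI collagen forms the core that nucleates and limits the fibril, and type IX collagen, a member of the fibril-associated collagens, decorates its surface. Type I and type III collagens build the fibrils of bone, skin, tendon and perichondrium, and chondrocytes that dedifferentiate in monolayer culture are known to shift from type II to type I collagen.

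Libraries held 3439726 to 44237300 counts on genes, with a median of 17062419, and the 10 collagens took 5.18 to 7.90% of them. Some libraries stood apart from their groups. Control vehicle replicate 4 had 439 CPM (counts scaled to the library total) of the TNFα-induced gene *Icam1*, against 34.4 to 40.4 CPM in the other control vehicle libraries, and the summed level of 10 TNFα-induced genes was 1377 CPM there against 113 to 128 CPM. It lay at -14.76 on the first principal component, which held 78.6% of the variance, against -58.84 to -56.95 for the rest of its group. It thus stood between the vehicle and TNFα libraries on that component, and went against its vehicle label in these respects. Its chi-square per degree of freedom was 10.1 to 14.8 against the other libraries of its group, and 2.14 to 3.95 among those. Control TNFα replicate 4 lay at 40.95 on the first principal component, against 53.0 to 56.3 for its group, and Notch2 TNFα replicate 4 was the library with the fewest counts and lay at 33.4 on the second, against 11.4 to 12.2 for its group. Notch2 vehicle replicate 1 was at 16.99 on the second component against 10.7 to 12.3, and differed from the other libraries of its group by a chi-square per degree of freedom of 10.9 to 12.8, against 3.23 to 4.00 among those. Control TNFα replicate 1 differed from its group by 8.10 to 10.6. *Notch2* itself, for which counts do not separate the alleles, was at 130 ± 19.7, 152 ± 13.5, 156 ± 28.0 and 223 ± 15.1 CPM (SD, n = 4) in control vehicle, Notch2 vehicle, control TNFα and Notch2 TNFα cells. The 12 chondrocyte markers summed to 7920.1 to 8219.8 CPM in control vehicle libraries, and all 12 were detected in every library, *Snorc* with as few as 5 counts. *Comp* made up the largest part, at a mean of 4794 CPM. In the same libraries 14 fibroblast and perichondrium markers summed to 2054 to 2169 CPM. These sums do not give the share of cells that were chondrocytes.

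*Col2a1* (ENSMUSG00000022483, chr15:97873483-97902689, minus strand) encodes the α1 chain of type II collagen. The chains of type IX collagen are encoded by *Col9a1* (ENSMUSG00000026147, chr1:24216691-24291765), *Col9a2* (ENSMUSG00000028626, chr4:120896582-120912523) and *Col9a3* (ENSMUSG00000027570, chr2:180239583-180264063). *Col11a1* (ENSMUSG00000027966, chr3:113824134-114014367) and *Col11a2* (ENSMUSG00000024330, chr17:34258108-34285664) encode the α1 and α2 chains of type XI collagen. *Col27a1* (ENSMUSG00000045672, chr4:63132241-63253228) encodes type XXVII collagen, a fibrillar collagen of growing cartilage. *Col1a1* (ENSMUSG00000001506, chr11:94827050-94843868) and *Col1a2* (ENSMUSG00000029661, chr6:4504814-4541555) encode the chains of type I collagen, and *Col3a1* (ENSMUSG00000026043, chr1:45350698-45395840) that of type III collagen. Positions are those of GENCODE M39 on GRCm39, and all genes but *Col2a1* are on the plus strand. *Col9a3* shares 535 exonic bases with *Tcfl5* on the opposite strand. *Tcfl5* had group means of 10.5 to 15.7 CPM, and since the strand setting of the counting is not given in the sources used here, reads of that stretch cannot be assigned to either gene.

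Promoter sequences from RefSeq on GRCm38.p6 were matched for 7 of the 10 genes. The 250 bases before the start are shown for *Col11a1* and *Col11a2*, whose products share a molecule but whose transcript ratio was lower with TNFα, for *Col27a1*, the member with the greatest change with TNFα, and for *Col1a2* of the fibroblast side. Capitals mark the CCAAT box (CCAAT), the GC box (GGGCGG), the TATA box (TATAAA), a pair of runs that SOX proteins bind (ACAAAG, and likewise its relative AACAAT), a core bound by RBPJ, the DNA-binding partner of Notch (TGGGAA), and an NF-κB motif (GGG, any 2 bases, then TTTCC), searched on both strands, and runs that touch each other are matches that adjoin or overlap.
Col11a1, chr3:114030290-114030539, plus strand: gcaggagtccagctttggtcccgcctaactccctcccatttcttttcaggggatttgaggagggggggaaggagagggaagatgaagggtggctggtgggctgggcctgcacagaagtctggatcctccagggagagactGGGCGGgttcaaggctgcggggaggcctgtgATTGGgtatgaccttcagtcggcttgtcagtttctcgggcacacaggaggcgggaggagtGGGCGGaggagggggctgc
Col11a2, chr17:34038888-34039137, plus strand: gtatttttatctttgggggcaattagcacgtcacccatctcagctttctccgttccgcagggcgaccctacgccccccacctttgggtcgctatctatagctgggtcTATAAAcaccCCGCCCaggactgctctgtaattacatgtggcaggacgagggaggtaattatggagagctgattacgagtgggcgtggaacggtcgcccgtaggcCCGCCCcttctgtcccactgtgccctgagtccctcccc
Col27a1, chr4:63215162-63215411, plus strand: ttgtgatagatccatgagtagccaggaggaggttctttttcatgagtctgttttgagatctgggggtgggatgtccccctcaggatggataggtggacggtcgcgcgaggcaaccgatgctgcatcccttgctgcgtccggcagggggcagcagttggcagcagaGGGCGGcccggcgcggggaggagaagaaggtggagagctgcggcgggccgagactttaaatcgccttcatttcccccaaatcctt
Col1a2, chr6:4505368-4505617, plus strand: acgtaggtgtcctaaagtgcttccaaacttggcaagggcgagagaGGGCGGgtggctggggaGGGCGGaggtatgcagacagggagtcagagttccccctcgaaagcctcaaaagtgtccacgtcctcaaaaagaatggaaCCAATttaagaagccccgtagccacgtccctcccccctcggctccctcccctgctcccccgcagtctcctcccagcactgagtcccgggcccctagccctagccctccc
*Col11a1* held a CCAAT and 2 GC boxes, *Col11a2* a TATAAA and 2 GC boxes, *Col27a1* 1 GC box, and *Col1a2* a CCAAT and 2 GC boxes. Over the 8 entries of the 7 genes, a GC box was in 5, CCAAT in 3, TATAAA in 2, TGGGAA in 2 (*Col9a1* and *Col9a2*), each SOX run in 1 (*Col3a1*), and the NF-κB motif in none. Of all 32851 promoter entries of this length, 32.7% held a GC box, 33.8% CCAAT, 12.4% TATAAA, 21.6% TGGGAA, 16.5% ACAAAG, 9.42% AACAAT and 1.41% the NF-κB motif. A match describes the letters of these windows only. *Col2a1*, *Col9a3* and *Col1a1* had no entry.

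Levels of different genes were compared as CPM per kb of merged exons. In control cells with vehicle the order was *Col2a1* (4019 ± 173 CPM per kb, SD, n = 4), *Col1a1* (2107 ± 114), *Col1a2* (937 ± 34.4), *Col3a1* (606 ± 13.6), *Col11a1* (405 ± 21.4), *Col11a2* (247 ± 5.19), *Col9a1* (145 ± 3.07), *Col9a3* (79.1 ± 3.03), *Col9a2* (78.1 ± 3.97) and *Col27a1* (24.9 ± 0.917). Libraries of neighbors in this order did not overlap, except for *Col9a3* and *Col9a2*. The cultures thus held type II and type I collagen transcripts side by side at high levels. In Notch2 cells with vehicle, *Col2a1* at 2543 ± 204 CPM per kb and *Col1a1* at 2472 ± 79.3 CPM per kb overlapped. Under TNFα, *Col2a1* remained above *Col1a1* in control cells (2920 ± 244 and 1980.1 ± 121 CPM per kb), whereas in Notch2 cells *Col1a1* at 2642 ± 140.2 CPM per kb lay above *Col2a1* at 1573 ± 92.2 CPM per kb in every library. The merged exons were longer than the longest transcript (9356 against 5220 bases for *Col2a1*, 12650 against 5437 for *Col1a2*), so these levels depend on the length used, whereas the differences between groups do not. With the longest transcript as length the order in control vehicle cells was the same, but *Col1a1* and *Col1a2* overlapped (2333 ± 127 and 2181 ± 80.1 CPM per kb) and *Col9a3* and *Col9a2* did not. *Col2a1* then lay above *Col1a1* in every Notch2 vehicle library (4558 ± 366 and 2738 ± 87.8 CPM per kb), and in Notch2 TNFα cells they overlapped, at 2819 ± 165 and 2926 ± 155 CPM per kb. Which of the pair had the higher mean in Notch2 cells was thus the same with both lengths, but the overlap of their libraries turned on the length.

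**Figure D1:**
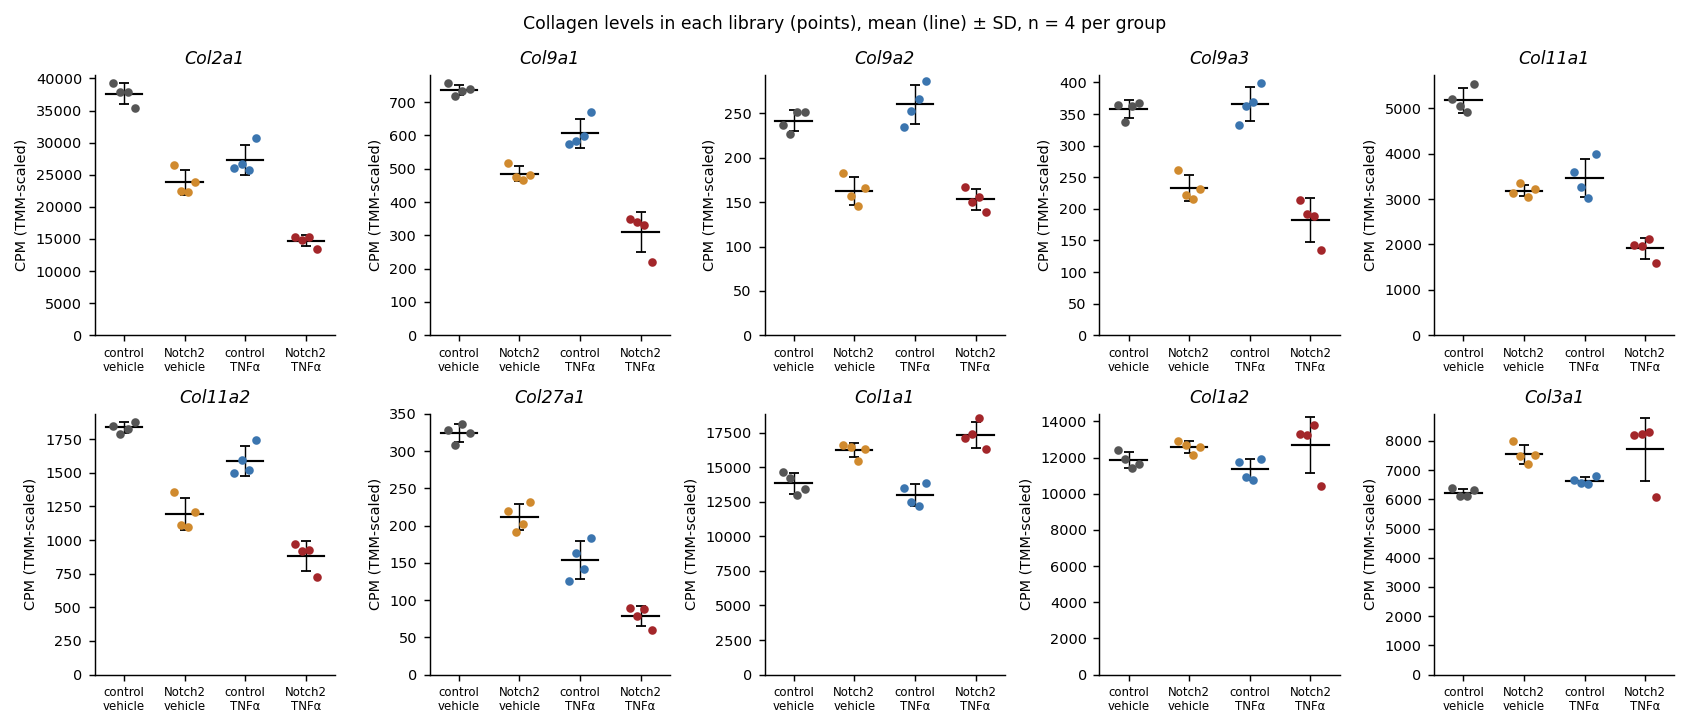
Level of each of the 10 collagens in TMM-scaled CPM (vertical axis from 0) in each library of the 4 groups (points), with the group mean (line) and SD (bar), n = 4. Each of the 7 cartilage collagens was lower in every Notch2 library than in every control library of the same treatment, *Col27a1* fell most with TNFα, and Notch2 TNFα replicate 4 (rightmost point) was low for *Col9a1*, *Col1a2* and *Col3a1*.

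The first comparison asked how the *Notch2* mutation changed the collagens in vehicle. All 7 cartilage collagens were lower in Notch2 cells, by 0.57 (*Col9a2*) to 0.69 (*Col11a1*) on the log2 scale, and *Col1a1* and *Col3a1* were higher. The changes of the cartilage members lay within a narrow band, although their levels differed widely. Adjusted p values here and below come from the quasi-likelihood test of edgeR, corrected by the Benjamini-Hochberg method for all genes tested, and a gene was called at an adjusted p under 0.05. The 7 of 7 called lower compare with 4.35% of the 19432 genes tested that were called lower, and the 2 of 3 fibroblast members called higher with 6.19% called higher. These are shares of genes of all levels, and none among genes as high as these members is given between genotypes. The median log2 fold change was -0.61 over the cartilage members and -0.00199 over all genes. In these bulk libraries, fewer cells of a type and less RNA per cell cannot be told apart.

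*Col2a1* was at 39311, 37806, 37880.2 and 35417 CPM in the 4 control vehicle libraries. In the 4 Notch2 vehicle libraries it was at 26457, 22468, 22346 and 23898.5 CPM. Every Notch2 library lay below every control library, a mean difference of -36.7% (log2 fold change -0.65 ± 0.06, SE, edgeR adjusted p = 1.7e-08). *Col11a1* went from 5178 ± 274 to 3189 ± 132 CPM (-0.69 ± 0.05, edgeR adjusted p = 1.3e-09), and its partner chain *Col11a2* from 1837 ± 38.6 to 1194 ± 120.2 CPM (-0.61 ± 0.06, edgeR adjusted p = 1.7e-07). The type IX chains fell together. *Col9a1* went from 736 ± 15.6 to 485 ± 22.9 CPM (-0.60 ± 0.05), *Col9a2* from 242 ± 12.3 to 163 ± 15.4 CPM (-0.57 ± 0.06) and *Col9a3* from 358 ± 13.7 to 232 ± 20.7 CPM (-0.62 ± 0.06), with edgeR adjusted p values of 8.6e-09, 1.2e-06 and 7.0e-08. *Col27a1* was at 329, 308, 336 and 325 CPM in control and at 219.9, 192, 202 and 232 CPM in Notch2 libraries (-0.61 ± 0.06, edgeR adjusted p = 6.0e-08). Groups did not overlap for any of the 7, against 7.19% of all genes that were lower without overlap.

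On the fibroblast side the differences were smaller and of the other sign. *Col1a1* was at 14690, 14196, 13003 and 13459 CPM in control and at 16638, 16492.5, 15478 and 16338 CPM in Notch2 vehicle libraries, without overlap (0.24 ± 0.05, edgeR adjusted p = 0.0018). *Col3a1* rose from 6228 ± 140 to 7551 ± 325 CPM (0.29 ± 0.05, edgeR adjusted p = 0.00019), also without overlap. Of all genes, 9.04% were higher without overlap. *Col1a2* was at 11857 ± 435 and 12581 ± 328 CPM, its libraries overlapped, and its difference of 0.09 ± 0.05 missed the threshold (edgeR adjusted p = 0.26). Without control vehicle replicate 4, the library with TNFα-induced transcripts, the 7 cartilage members were lower by 0.55 (*Col9a2*) to 0.69 (*Col2a1*), and *Col1a1* and *Col3a1* were higher by 0.22 and 0.28, all called. Without Notch2 vehicle replicate 1 they were lower by 0.63 (*Col9a2*) to 0.71 (*Col2a1*) and higher by 0.22 and 0.25, all called.

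Transcripts of other cell types moved with genotype. Macrophage markers summed to 34.5 to 38.2 CPM in control and 66.9 to 77.3 CPM in Notch2 vehicle libraries, with 8 of 12 called higher and *Aif1* at 0 in some libraries. The sums of 6 smooth muscle markers were 1787 to 2069 and 3568 to 4183 CPM (5 called higher, with *Myocd* at 0 in some libraries), those of 7 endothelial markers 8.51 to 10.5 and 18.2 to 22.2 CPM (4 called higher), and those of 8 skeletal muscle markers 24.0 to 28.1 and 37.9 to 45.5 CPM (4 called higher, with *Ckm* at 0 in some libraries). The 14 fibroblast and perichondrium markers summed to 2054 to 2169 and 2360.2 to 2467 CPM, with 7 called higher, among them *Mfap5* (1.203 ± 0.07) and *Postn* (0.93 ± 0.06), and 3 lower, among them *Dpp4* (-1.35 ± 0.12). The 10 osteoblast markers summed to 1187 to 1314 CPM in control and 865 to 955 CPM in Notch2 vehicle libraries, mostly *Spp1*, with 2 called higher and 2 lower. The part of these cells in the collagen differences was not tested.

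The same comparison under TNFα gave the same signs. All 7 cartilage collagens were called lower in Notch2 than in control cells, by 0.75 (*Col9a2*) to 0.98 (*Col9a3*) on the log2 scale, and *Col1a1* and *Col3a1* were higher. Here 4.31% of the 19227 genes tested were called lower and 5.63% higher, and the median log2 fold change was -0.88 over the cartilage members against -0.01 over all genes. *Col2a1* was at 26110.4, 26694, 25772 and 30701 CPM in control and at 15334, 14782, 15267 and 13473 CPM in Notch2 TNFα libraries. The groups lay far apart, a mean difference of -46.1% (-0.88 ± 0.07, edgeR adjusted p = 1.9e-10). *Col11a1* was at 3468 ± 427 and 1917 ± 227 CPM (-0.84 ± 0.09) and *Col11a2* at 1588 ± 112 and 883 ± 110.2 CPM (-0.83 ± 0.07), with edgeR adjusted p values of 2.0e-06 and 4.7e-09.

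*Col9a3* was at 333, 362, 368 and 399 CPM in control and at 215, 193, 189 and 134 CPM in Notch2 TNFα libraries (-0.98 ± 0.11, edgeR adjusted p = 4.6e-05). *Col9a1* went from 607 ± 43.3 to 309 ± 60.8 CPM (-0.95 ± 0.12, edgeR adjusted p = 0.00049) and *Col9a2* from 260.3 ± 21.8 to 153 ± 11.7 CPM (-0.75 ± 0.07, edgeR adjusted p = 4.2e-09). *Col27a1*, already low under TNFα, was at 125, 163, 142 and 184 CPM in control and at 89.2, 78.5, 88.0 and 59.3 CPM in Notch2 libraries (-0.93 ± 0.15, edgeR adjusted p = 0.0046). None of the 7 overlapped between the genotypes, against 7.51% of all genes that were lower without overlap. Notch2 TNFα replicate 4 was the lowest library of its group for each cartilage member, and without it the 7 differences ran from -0.88 (*Col9a3*) to -0.72 (*Col9a2*), all called.

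*Col1a1* was at 13473, 12461, 12212 and 13868 CPM in control and at 17102.5, 17395, 18557 and 16339 CPM in Notch2 TNFα libraries. Every Notch2 library lay above every control library, and the mean was 33.4% higher (0.43 ± 0.06, edgeR adjusted p = 1.8e-05). *Col3a1* was at 6632 ± 120.5 and 7712 ± 1081 CPM, where 3 Notch2 libraries lay between 8217 and 8305 CPM and replicate 4 at 6093 CPM, below all controls (0.23 ± 0.07, edgeR adjusted p = 0.044). The call was lost on leaving out any control TNFα library or any of Notch2 TNFα replicates 1 to 3 (0.19 to 0.23, edgeR adjusted p = 0.076 to 0.21) and held, at 0.32, without Notch2 TNFα replicate 4. *Col1a2* differed by 0.17 ± 0.07 (edgeR adjusted p = 0.14), and without Notch2 TNFα replicate 4 it was called, at 0.25 (edgeR adjusted p = 0.0020). The markers of other cells again moved with genotype: macrophage sums were 42.1 to 45.7 and 93.9 to 104 CPM (10 of 12 called higher), smooth muscle sums 986 to 1204 and 1869 to 2163 CPM (3 of 6), endothelial sums 11.3 to 13.99 and 19.8 to 26.9 CPM (3 of 7), skeletal muscle sums 9.50 to 18.7 and 20.1 to 41.4 CPM (2 of 8), and fibroblast sums 2323 to 2450.2 and 2944 to 3025 CPM (9 of 14 called higher, 2 lower). Osteoblast sums, mostly *Spp1*, were 1526 to 1889 and 1164 to 1420.3 CPM (1 of 10 higher, 1 lower). Their part was not tested.

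The changes with TNFα differed in size among the collagens. In control cells it lowered *Col27a1* by 1.07, *Col11a1* by 0.57, *Col2a1* by 0.45, *Col9a1* by 0.27 and *Col11a2* by 0.20 on the log2 scale, whereas *Col9a2*, *Col9a3*, *Col1a1* and *Col1a2* did not pass the test. *Col3a1* was higher by 0.10. The 5 of 7 cartilage members called lower are to be read against 20.9% of the 19338 genes tested called lower, and the 1 of 3 fibroblast members called higher against 23.3% called higher. Among genes with a mean of 100 CPM or more, as these members had, 46.1% were called lower. The median was -0.27 over the cartilage members and 0.04 over all genes.

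*Col27a1* was at 329, 308, 336 and 325 CPM with vehicle and at 125, 163, 142 and 184 CPM with TNFα. The mean differed by -52.7%, and the groups were separated by a wide gap (-1.07 ± 0.11, edgeR adjusted p = 8.5e-05). *Col11a1* was at 5206, 5043, 4916 and 5548 CPM with vehicle and at 3588, 3256, 3022 and 4004 CPM with TNFα (-0.57 ± 0.10, edgeR adjusted p = 0.0035), while *Col11a2* moved only from 1837 ± 38.6 to 1588 ± 112 CPM (-0.20 ± 0.04, edgeR adjusted p = 0.00055). *Col2a1* changed by -27.3% in the mean, from 37604 ± 1614 to 27319 ± 2286 CPM (-0.45 ± 0.06, edgeR adjusted p = 0.0012). The type IX chains parted: *Col9a1* fell from 736 ± 15.6 to 607 ± 43.3 CPM (-0.27 ± 0.05, edgeR adjusted p = 4.1e-05), whereas *Col9a2* was at 242 ± 12.3 and 260.3 ± 21.8 CPM (0.11 ± 0.06, edgeR adjusted p = 0.12) and *Col9a3* at 358 ± 13.7 and 366 ± 27.3 CPM (0.04 ± 0.05, edgeR adjusted p = 0.62). *Col1a1* was at 13837 ± 752 and 13003 ± 793 CPM (-0.08 ± 0.06, edgeR adjusted p = 0.30) and *Col1a2* at 11857 ± 435 and 11346 ± 588 CPM (-0.06 ± 0.04, edgeR adjusted p = 0.28). *Col3a1* was at 6228 ± 140 and 6632 ± 120.5 CPM and did not overlap (0.10 ± 0.03, edgeR adjusted p = 0.0035). None of the 6 called members overlapped between treatments, where 20.0% of all genes were lower and 21.8% higher without overlap. In the fit to all 16 libraries *Col9a1* and *Col3a1* missed the threshold (edgeR adjusted p = 0.051 and 0.36), and DESeq2 did not call *Col3a1* either (adjusted p = 0.063). Without control TNFα replicate 1, *Col9a2* passed it (0.16, edgeR adjusted p = 0.038).

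Control vehicle replicate 4 and control TNFα replicate 4 both entered this comparison. Without replicate 4 of both control groups the log2 fold changes were -1.17 (*Col27a1*), -0.61 (*Col11a1*), -0.54 (*Col2a1*), -0.32 (*Col9a1*), -0.24 (*Col11a2*) and 0.09 (*Col3a1*), and the same 6 members were called. Control TNFα replicate 4 was the highest of its group for all 7 cartilage collagens. Control vehicle replicate 4, in contrast, was lowest of its group for *Col2a1* (35417 CPM) and highest for *Col9a3*, *Col11a1* and *Col11a2*. Smooth muscle markers fell with TNFα as a whole, with 6 of 6 called lower and sums going from 1787 to 2069 CPM to 986 to 1204 CPM. Other markers moved as well. Fibroblast sums went from 2054 to 2169 CPM to 2323 to 2450.2 CPM (7 of 14 called higher, 4 lower), macrophage sums from 34.5 to 38.2 CPM to 42.1 to 45.7 CPM (3 of 11 tested higher, 1 lower), osteoblast sums from 1187 to 1314 CPM to 1526 to 1889 CPM (1 of 10 higher, 4 lower), endothelial sums from 8.51 to 10.5 CPM to 11.3 to 13.99 CPM (1 of 7 higher) and skeletal muscle sums from 24.0 to 28.1 CPM to 9.50 to 18.7 CPM (3 of 8 lower), all without overlap. The osteoblast sums were mostly *Spp1*, at means of 1190 CPM with vehicle and 1680 CPM with TNFα. The part of all these markers in the collagen changes was not tested.

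In Notch2 cells TNFα lowered the same 5 cartilage members. *Col27a1* fell by 1.39, *Col11a1* by 0.73, *Col2a1* by 0.69, *Col9a1* by 0.64 and *Col11a2* by 0.43 on the log2 scale, in the same order as in control cells. Of the 19633 genes tested, 21.9% were called lower and 22.6% higher, and 44.0% of the genes at 100 CPM or more were called lower. The median was -0.64 over the cartilage members and 0.03 over all genes. *Col27a1* was at 219.9, 192, 202 and 232 CPM with vehicle and at 89.2, 78.5, 88.0 and 59.3 CPM with TNFα, a mean difference of -62.8% (-1.39 ± 0.10, edgeR adjusted p = 1.8e-08). *Col11a1* was at 3127, 3356, 3051 and 3224 CPM and then at 1991, 1972, 2114 and 1589 CPM (-0.73 ± 0.07, edgeR adjusted p = 6.0e-09), and *Col2a1* went from 23792 ± 1911 to 14714 ± 863 CPM (-0.69 ± 0.06, edgeR adjusted p = 3.4e-10). Neither overlapped between the treatments. Of all genes tested, 20.4% were lower and 19.9% higher without overlap.

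*Col9a1* was at 518, 475, 465 and 482 CPM with vehicle and at 349, 339, 330 and 219 CPM with TNFα (-0.64 ± 0.13, edgeR adjusted p = 0.0025). *Col11a2* went from 1194 ± 120.2 to 883 ± 110.2 CPM (-0.43 ± 0.09, edgeR adjusted p = 0.00084). *Col9a3* was at 262, 221, 215.01 and 232 CPM and at 214.62, 193, 189 and 134 CPM, which did not overlap by a small margin and missed the threshold (-0.33 ± 0.12, edgeR adjusted p = 0.051), while DESeq2 called it (-0.34, adjusted p = 0.0043). It was also called in edgeR with RLE scaling, with the filter of filterByExpr, with no filter beyond 1 count, in the fit to all 16 libraries, with the replicate block and with 1 surrogate variable (-0.35 to -0.31, edgeR adjusted p = 4.5e-07 to 0.036), and without Notch2 vehicle replicate 3 (-0.37), Notch2 TNFα replicate 1 (-0.41) or Notch2 TNFα replicate 4. It was not called with scaling without collagen genes (edgeR adjusted p = 0.052) or without any of the other 5 libraries, of which Notch2 vehicle replicate 1 gave -0.25 (edgeR adjusted p = 0.13). *Col9a2* was at 163 ± 15.4 and 153 ± 11.7 CPM (-0.08 ± 0.07, edgeR adjusted p = 0.39). The fibroblast members were within 0.10 of no change (*Col1a1* 0.10 ± 0.06, *Col1a2* 0.01 ± 0.07, *Col3a1* 0.03 ± 0.08, edgeR adjusted p = 0.16, 0.89 and 0.79). Leaving out Notch2 TNFα replicate 4 brought 8 members past the threshold in place of 5, adding *Col9a3* (-0.22), *Col1a1* (0.12) and *Col3a1* (0.13), and *Col27a1* was then at -1.31 and *Col2a1* at -0.65. Smooth muscle markers fell here too, 6 of 6, from sums of 3568 to 4183 CPM to 1869 to 2163 CPM. Macrophage sums went from 66.9 to 77.3 CPM to 93.9 to 104 CPM (8 of 12 called higher, 1 lower), fibroblast sums from 2360.2 to 2467 CPM to 2944 to 3025 CPM (7 of 14 higher, 2 lower) and osteoblast sums from 865 to 955 CPM to 1164 to 1420.3 CPM (2 of 10 higher, 4 lower), all without overlap, whereas endothelial and skeletal muscle sums overlapped. The osteoblast sums were mostly *Spp1*, at means of 822 CPM with vehicle and 1240 CPM with TNFα. The part of all these markers was not tested.

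**Figure D2:**
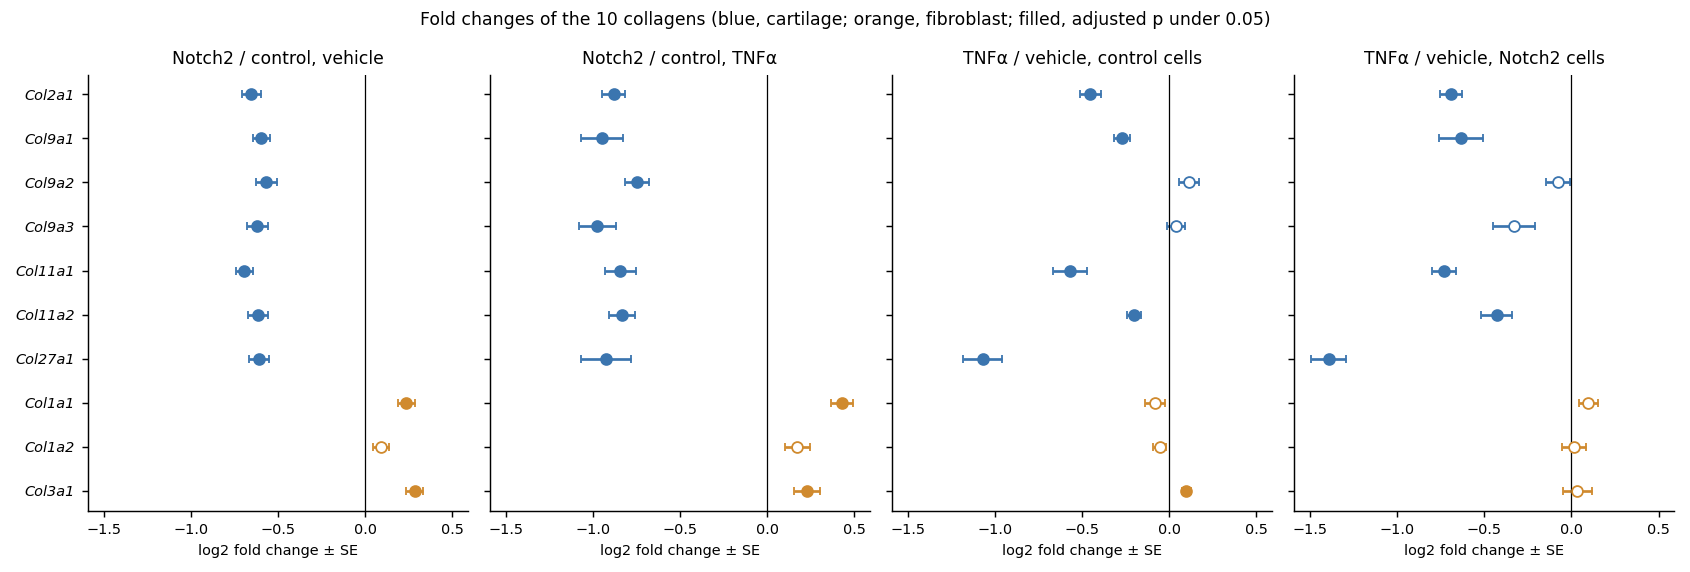
Log2 fold change ± SE (horizontal axis) of the 10 collagens (rows) in the 4 comparisons (panels), with cartilage members in blue and fibroblast members in orange, and filled points called at an edgeR adjusted p under 0.05. Between genotypes the cartilage members lie close together at -0.57 to -0.69 with vehicle, whereas with TNFα in control cells they spread from -1.07 (*Col27a1*) to 0.11 (*Col9a2*).

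Whether TNFα changed the collagens more in Notch2 than in control cells was tested as the genotype by TNFα interaction. No member passed the threshold in edgeR or in DESeq2, against 0.474% of the 21321 genes tested. The estimates for all 7 cartilage members were below 0, from -0.37 ± 0.15 (*Col9a3*) and -0.36 ± 0.15 (*Col9a1*) to -0.16 ± 0.13 (*Col11a1*), with a median of -0.23 against -0.01 over all genes. At an unadjusted p under 0.05 in edgeR there were 4 members, *Col2a1* (-0.23 ± 0.09), *Col9a1*, *Col9a3* and *Col1a1* (0.19 ± 0.06). The adjusted p values of edgeR ranged from 0.27 (*Col1a1*) to 0.92 (*Col3a1*). With no filter beyond 1 count, 3 members were called (*Col2a1*, *Col9a1* and *Col9a3*, at edgeR adjusted p values of 0.0048, 0.0029 and 0.0048). Calls over all genes also rose in that setting, to 135 higher and 131 lower of 28572 tested, from 57 and 44 of 21321. In an added fit without replicate 4 of both control groups and of Notch2 TNFα, *Col2a1* was at -0.10, *Col9a1* at -0.19, *Col11a1* at -0.03 and *Col27a1* at -0.14, and *Col1a1* was called at 0.26 (edgeR adjusted p = 0.025). In the same fit *Col9a3* was at -0.22, *Col9a2* at -0.12 and *Col11a2* at -0.10, so that all 7 cartilage estimates were nearer to 0 than with all 16 libraries. Over all genes, 121 were called higher and 74 lower in that fit, of 20912 tested. Without Notch2 vehicle replicate 1 no member was called and the cartilage estimates ran from -0.33 (*Col9a1*) to -0.13 (*Col9a2*), while the calls over all genes went from 57 higher and 44 lower to 81 and 75.

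**Figure D3:**
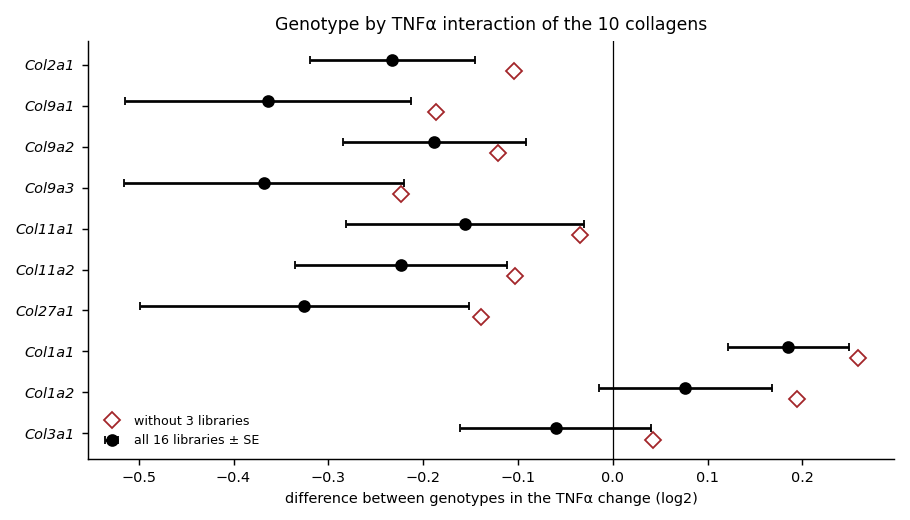
Genotype by TNFα interaction (horizontal axis, log2 difference between the TNFα changes of Notch2 and control cells) for the 10 collagens (rows), from all 16 libraries ± SE (black) and without replicate 4 of both control groups and of Notch2 TNFα (red diamonds). All 7 cartilage members lie below 0 in both fits, and each lies nearer to 0 without the 3 libraries.

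The balance between the cartilage and fibroblast sides was described as ratios of CPM per kb within each library, without a test. The summed cartilage to summed fibroblast ratio was 1.37 ± 0.047 in control vehicle, 0.754 ± 0.039 in Notch2 vehicle, 1.05 ± 0.058 in control TNFα and 0.455 ± 0.013 in Notch2 TNFα libraries (SD, n = 4). No library of any group overlapped with a library of another group. *Col2a1* to *Col1a1* was 1.88, 1.87, 2.04 and 1.85 in control vehicle and 1.12, 0.956, 1.01 and 1.03 in Notch2 vehicle libraries. With TNFα it was 1.36, 1.504, 1.48 and 1.55 in control and 0.629, 0.596, 0.577 and 0.579 in Notch2 libraries. The TNFα-treated control libraries thus lay between the vehicle groups, and the Notch2 TNFα libraries lay below all others. With the longest transcript as length the means were 3.09, 1.66, 2.39 and 0.964 in control vehicle, Notch2 vehicle, control TNFα and Notch2 TNFα libraries. The last group ranged from 0.935 to 1.02. The order of the groups and the side of 1 of each group mean were the same as with merged exons. Single libraries changed side: Notch2 vehicle replicate 2 went from 0.956 to 1.55, and Notch2 TNFα replicate 1 from 0.629 to 1.02. *Col2a1* made up 46.5 ± 1.05% of the summed level of the 10 genes in control vehicle and 24.6 ± 0.637% in Notch2 TNFα libraries, and the fibroblast members 42.2 ± 0.824% and 68.7 ± 0.615%.

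Chains that assemble into the same molecule did not keep fixed proportions under TNFα. *Col9a1* was 48.0 ± 0.921% of the summed type IX level in control vehicle and 48.0 ± 1.12% in Notch2 vehicle, but 42.1 ± 0.838% in control TNFα and 40.2 ± 2.51% in Notch2 TNFα libraries. The vehicle and TNFα libraries did not overlap in either genotype, while the genotypes overlapped within each treatment. The share of *Col9a2* was 25.8 ± 0.806 and 26.3 ± 0.742% with vehicle and 29.5 ± 0.527 and 33.1 ± 3.41% with TNFα in control and Notch2 cells. *Col11a1* to *Col11a2* was 1.64 ± 0.062 in control vehicle, 1.56 ± 0.173 in Notch2 vehicle, 1.27 ± 0.115 in control TNFα and 1.26 ± 0.055 in Notch2 TNFα libraries, and here too the genotypes overlapped. *Col1a1* to *Col1a2* instead followed genotype, at 2.25 ± 0.046 and 2.21 ± 0.024 in control cells and 2.49 ± 0.022 and 2.65 ± 0.249 in Notch2 cells with vehicle and TNFα, and the genotypes did not overlap. *Col2a1* to summed type XI was between 5.89 and 6.20 in the group means, with overlap between all groups. *Col2a1* to summed type IX was 13.3 ± 0.737 and 12.7 ± 0.210 with vehicle and 10.3 ± 0.430 and 10.6 ± 1.15 with TNFα.

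**Figure D4:**
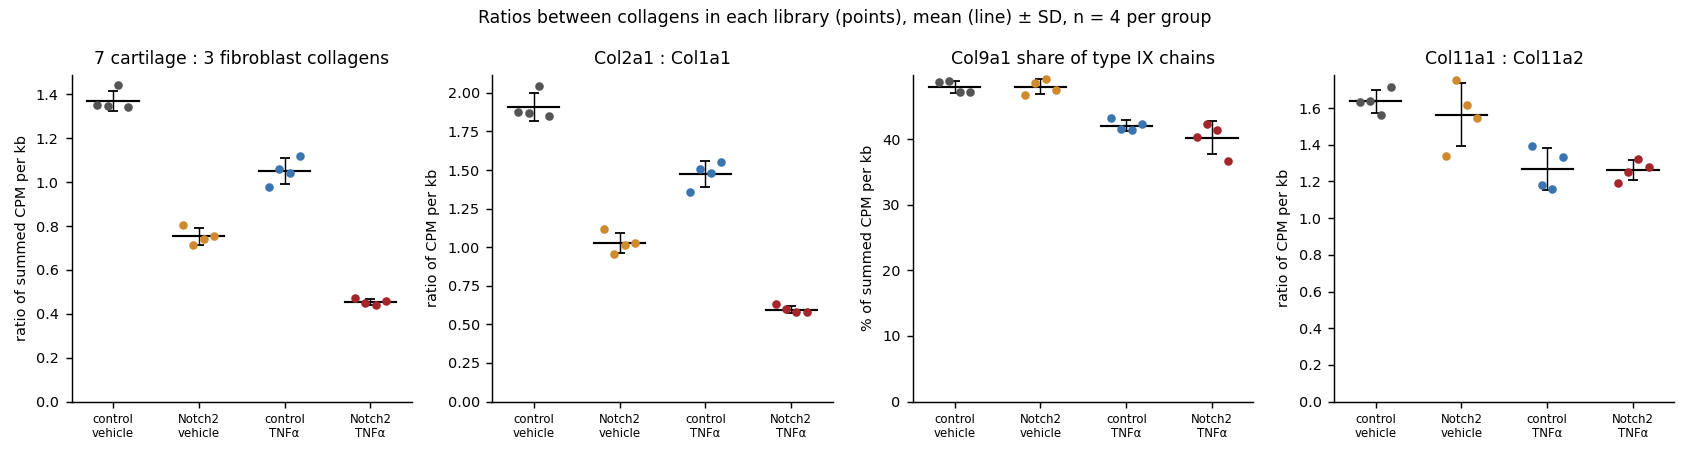
Ratios between collagens (vertical axes from 0, from CPM per kb of merged exons) in each library of the 4 groups (points), with mean (line) and SD (bar), n = 4. The summed cartilage to fibroblast ratio and *Col2a1* to *Col1a1* step down with genotype and with TNFα, whereas the *Col9a1* share of type IX chains and *Col11a1* to *Col11a2* are lower with TNFα and alike in both genotypes.

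The genes with the pattern most like *Col2a1* over the 16 libraries were ranked by the root-mean-square difference of centered log2 CPM, among 13430 other genes. *Col11a1* was first (0.112 on the log2 scale), followed by *Cdkn1c* (0.112), *Matn1* (0.122), *Prkcz* (0.124) and *Col9a1* (0.127). *Col11a2* ranked 8, *Col9a3* 58, *Col9a2* 199 and *Col27a1* 606. For *Col1a1* the order was *Nid1* (0.058), *St3gal2* (0.078), *Dbn1* (0.078), *Mdc1* (0.083) and *Loxl1* (0.084), with *Col3a1* at rank 60 and *Col1a2* at rank 75.

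Other genes of cartilage were described from lists, by counts and medians. The 12 chondrocyte markers were lower in Notch2 cells in 12 of 12 cases with either treatment, with medians of -0.71 with vehicle and -1.01 with TNFα, and TNFα lowered 11 of 12 in each genotype. Among them, *Cnmd*, which encodes the antiangiogenic chondromodulin, went from 653 ± 14.6 to 358 ± 3.99 CPM with vehicle (-0.86 ± 0.05), and *Acan*, the aggrecan gene, fell with TNFα in control cells from 1679 ± 87.3 to 663 ± 163 CPM (-1.33 ± 0.17). Of 6 chondrogenic transcription factors, 4 were lower in Notch2 cells with either treatment and 5 fell with TNFα in each genotype. *Sox9*, which drives transcription of *Col2a1* and other cartilage collagens, was at 213 ± 9.84 and 159 ± 7.43 CPM in control and Notch2 vehicle cells (-0.42 ± 0.05) and at 77.9 ± 21.7 and 42.8 ± 5.16 CPM with TNFα (-0.89 ± 0.21, edgeR adjusted p = 0.049). That call was lost without control TNFα replicate 2 or any one Notch2 TNFα library (-0.96 to -0.85, edgeR adjusted p = 0.071 to 0.13). Its change with TNFα was -1.44 ± 0.19 in control and -1.92 ± 0.07 in Notch2 cells. Its partner *Sox5* differed between genotypes by -0.53 ± 0.08 with vehicle and -0.60 ± 0.11 with TNFα.

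The other fibrillar collagens moved in both directions. Of 4, 2 were called higher and 1 lower in Notch2 vehicle cells, 2 higher in Notch2 TNFα cells, and 1 rose with TNFα in each genotype while 2 fell in control and 1 in Notch2 cells. *Col5a3*, a chain of type V collagen, was higher in Notch2 cells (1.22 ± 0.22 with vehicle, 0.94 ± 0.14 with TNFα) and rose with TNFα (2.42 ± 0.26 in control and 2.13 ± 0.11 in Notch2 cells). Control vehicle replicate 4 held 122 CPM of it against 64.4 to 70.3 CPM in the rest of its group, and without that library the differences were 1.48 between genotypes and 2.68 with TNFα. Its call between genotypes with vehicle was lost without control vehicle replicate 1 or 3 or Notch2 vehicle replicate 2 or 4 (1.15 to 1.22, edgeR adjusted p = 0.052 to 0.058). *Col5a1* was higher in Notch2 cells (0.42 ± 0.05 and 0.49 ± 0.07) and lower with TNFα in control cells (-0.20 ± 0.07, edgeR adjusted p = 0.046). *Col5a2*, the third type V chain, was lower in Notch2 vehicle cells (-0.15 ± 0.05, edgeR adjusted p = 0.044), without overlap, as the cartilage members were. The minor collagen *Col24a1* fell with TNFα (-0.38 ± 0.15, edgeR adjusted p = 0.047, and -1.005 ± 0.19). The calls of *Col5a1* and *Col24a1* with TNFα in control cells and of *Col5a2* were each lost on leaving out any of several single libraries (edgeR adjusted p = 0.057 to 0.13). Among 6 tested fibril-associated collagens other than type IX, 1 was called higher and none lower in Notch2 vehicle cells, where 3 estimates were below 0, and 1 higher and 1 lower in Notch2 TNFα cells. *Col14a1* was higher in Notch2 cells (0.66 ± 0.07 and 0.94 ± 0.07). *Col22a1* rose with TNFα from low levels (2.50 ± 0.39 and 2.74 ± 0.17) and was lower in Notch2 TNFα cells (-0.46 ± 0.102, edgeR adjusted p = 0.0026). It was at 1.27, 1.52, 2.38 and 5.42 CPM in control vehicle libraries, the last of them replicate 4, without which its rise was 3.15 ± 0.17. Of 8 beaded and short-chain collagens, 5 were called higher in Notch2 cells with each treatment, while none was called lower with vehicle and 1 with TNFα. *Col6a2*, a chain of the pericellular type VI collagen, went from 2245 ± 49.5 to 2969 ± 206 CPM with vehicle (0.41 ± 0.05), and *Col8a1* was higher in Notch2 vehicle cells (0.81 ± 0.05) but fell with TNFα (-0.92 ± 0.09 in control and -1.33 ± 0.07 in Notch2 cells).

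Of the genes that make and bind fibrils, more were called with TNFα than between genotypes, as was so over all genes. Of 20 procollagen modification and folding genes, 14 fell and 2 rose with TNFα in control cells and 12 fell and 2 rose in Notch2 cells, against 3 lower and none higher between genotypes with vehicle and 4 lower and 1 higher with TNFα. *P3h2*, a prolyl 3-hydroxylase, fell with TNFα (-1.12 ± 0.12 and -1.32 ± 0.08) and was lower in Notch2 cells (-0.57 ± 0.06 and -0.77 ± 0.11), and *P4ha1*, a prolyl 4-hydroxylase subunit, was lower in Notch2 cells by 0.22 and 0.32 on the log2 scale. Of 12 tested cleavage and crosslinking genes, 4 were higher and 3 lower in Notch2 cells with vehicle and 5 higher and 1 lower with TNFα, and 4 rose and 7 fell with TNFα in control and 5 rose and 5 fell in Notch2 cells. *Loxl4*, a lysyl oxidase-like enzyme, went from 528 ± 20.02 to 262 ± 6.73 CPM in Notch2 vehicle cells (-1.01 ± 0.05). *Adamts3*, a procollagen N-proteinase with activity on type II procollagen, fell with TNFα (-2.33 ± 0.19 and -2.66 ± 0.24). Its levels were low, going from 7.36 ± 0.68 to 1.43 ± 0.44 CPM in control and from 5.63 ± 0.40 to 1.07 ± 0.64 CPM in Notch2 cells. In the other direction, *Tll1*, a tolloid-like proteinase, rose with TNFα (1.83 ± 0.18 and 1.45 ± 0.13), as did *Adamts14*, another procollagen N-proteinase (0.87 ± 0.07 and 1.31 ± 0.07), and in Notch2 TNFα cells *Adamts14* (0.50 ± 0.07) and the lysyl oxidase-like *Loxl1* (0.49 ± 0.06) were higher than in control cells. Of 4 tested collagenolytic proteases, 3 rose with TNFα in each genotype, and *Mmp13*, which cleaves type II collagen, went from 107 ± 34.8 to 556 ± 56.0 CPM in control and from 51.8 ± 9.63 to 476 ± 9.55 CPM in Notch2 cells (2.39 ± 0.25 and 3.19 ± 0.11). Control vehicle replicate 4 held 158 CPM of *Mmp13* against 84.2 to 95.1 CPM in the rest of its group. Without that library the rises in control cells were 2.64 ± 0.08 for *Mmp13* and 2.09 ± 0.14 for *Tll1*. Of 8 collagen receptors, 5 fell and 2 rose with TNFα in each genotype. Between genotypes, 2 were higher and 3 lower in Notch2 cells with vehicle, and 2 higher and 2 lower with TNFα. *Itga10*, the integrin chain that binds type II collagen on chondrocytes, was lower in Notch2 cells (-0.41 ± 0.06 and -0.45 ± 0.06). *Itga1* of the same list was higher (0.51 ± 0.09 and 0.64 ± 0.09). Of 15 fibril-binding proteins, 8 were lower and 2 higher in Notch2 cells with each treatment, and the cartilage matrilin *Matn1* went from 268 ± 24.7 to 160.3 ± 6.51 CPM with vehicle (-0.73 ± 0.06) and from 203 ± 10.4 to 91.2 ± 8.14 CPM with TNFα (-1.14 ± 0.07). In the interaction test *Matn1* was called below 0 (-0.41 ± 0.09, edgeR adjusted p = 0.031), and *Adamts14* (0.44 ± 0.098, edgeR adjusted p = 0.024) and the collagen-binding integrin chain *Itga11* (0.44 ± 0.08, edgeR adjusted p = 0.0055) were called above 0. The call of *Itga11* held on leaving out each library, whereas that of *Matn1* was lost without any of 5 (edgeR adjusted p = 0.052 to 0.11) and that of *Adamts14* without any of 6 (edgeR adjusted p = 0.054 to 0.089). Some genes, among them *Sox9*, *Matn1*, *Matn3* and *Mmp13*, stand on more than 1 list. Of 8 hypertrophic chondrocyte markers, 6 fell and 1 rose with TNFα in control cells, and 3 were lower and 2 higher in Notch2 vehicle cells.

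**Figure D5:**
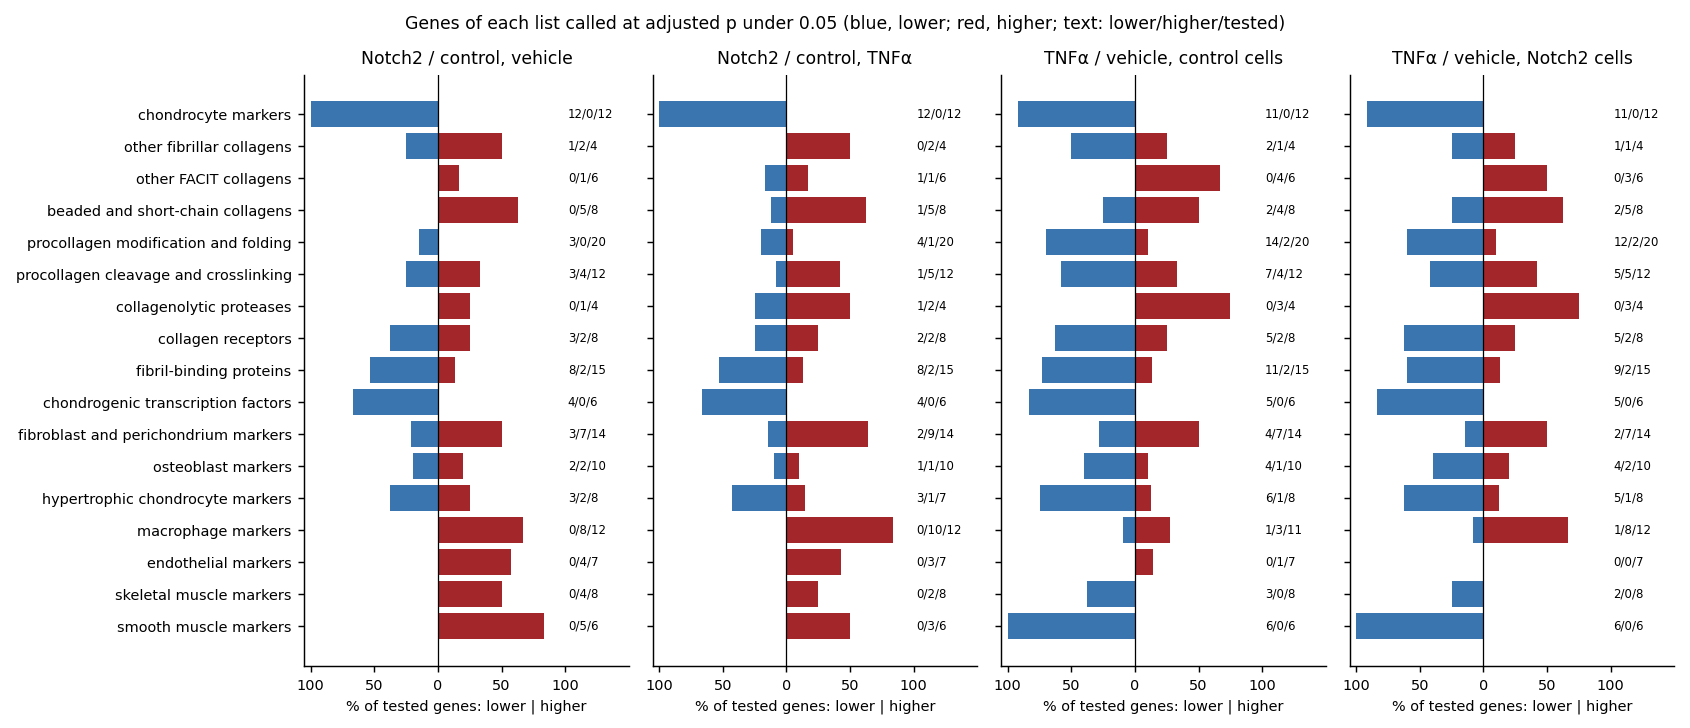
Share of the tested genes of each list (rows) called lower (blue, to the left) or higher (red, to the right) at an edgeR adjusted p under 0.05 in the 4 comparisons (panels), with the numbers lower, higher and tested at the right of each bar. Of 12 chondrocyte markers, 12 are called lower in each genotype comparison and 11 in each TNFα comparison, and of 20 procollagen modification genes 14 and 12 are called lower with TNFα. In Notch2 against control cells, 8 and 10 of 12 macrophage markers and 5 and 3 of 6 smooth muscle markers are called higher.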

How the data were processed

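RNA-Seq was performed on 16 libraries of 4 groups. The authors deposited raw read counts per Ensembl gene, 1 library per file, made with HTSeq after alignment with HISAT2. The processing notes in the labels name HISAT2 2.1.0, SAMtools 1.9, Picard, DESeq2 and GRCm38, whereas the study's methods name a later HISAT2 and GRCm39. The library kit marks strand, but the strand setting of the counting is not given in the sources used here. Of all entries, 5 name no gene (8.81 to 12.1% of a library) and were left out. Counts per gene were used as deposited.

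Genes with at least 10 counts summed over the compared libraries were tested with edgeR 4.0.16 (quasi-likelihood test, TMM scaling, R 4.3.3) on the groups compared, with Benjamini-Hochberg adjustment over all genes tested and a threshold of 0.05. The interaction was fitted to all 16 libraries. Error of fold changes is the SE of that fit. CPM are TMM-scaled, and levels per kb use the merged exons of GENCODE M39. DESeq2 1.42.0, sva 3.50.0 and the alternatives described in the closing section were run beside it. The fits were tested on simulated data, in which edgeR recovered 95, 87 and 50% of genes changed by 0.6 on the log2 scale, and 99, 100 and 97% of those changed by 1, for TNFα in control cells, genotype with vehicle and the interaction, with 7, 6 and 4 unchanged genes called among 18954, 19053 and 20973. The simulation gave all genes the same dispersion, changed only well-counted genes and held no library that stood apart, so its rates need not hold for these libraries. Its smallest change was 0.6, whereas the cartilage estimates of the interaction were -0.37 to -0.16. Depth was 3439726 to 44237300 counts, and the lowest count of any member in a library was 215.

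The members and lists were chosen with earlier results of these data known. All members were reported. From each other list at most 3 genes per comparison could be named, those with the largest change among the genes called at 1 CPM or more, and 5 genes each were named for likeness to *Col2a1* and *Col1a1*. The share of calls among genes at 100 CPM or more was added after the data were seen, and is given for calls lower with TNFα only. Replicate numbers are given by the labels, but samples with the same number did not deviate together (correlations of -0.178 to 0.120), so they were not treated as pairs. Libraries of a group differed from each other by more than sampling noise (chi-square per degree of freedom of 2.14 to 16.0). The labels call them biological replicates but do not say whether each came from separate mice or pools. If they did not, p-values measure only the spread between these libraries, which may be technical.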

Additional observations from a re-analysis of the deposited data

Results flagged for a closer look

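Each of the 10 collagens was examined in each of the 4 groups for a library far from the others of its group, and 4 of 40 such groups held one, where chance gives about 1 in 20. In Notch2 TNFα replicate 4, the library with 3439726 counts, *Col9a1* was at 219 CPM against 330 to 349 CPM in the other 3 libraries, *Col1a2* at 10418.5 CPM against 13261 to 13813 CPM, and *Col3a1* at 6093 CPM against 8217 to 8305 CPM. In control vehicle replicate 2, *Col9a3* was at 338 CPM against 363 to 367 CPM.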

How the results depend on the processing

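The number of the 10 collagens called was 9 between genotypes with either treatment, 6 with TNFα in control cells, 5 with TNFα in Notch2 cells and 0 for the interaction. Requiring also a log2 change of 1 or more in size, it was 0 and 0 between genotypes, and 1 and 1 with TNFα (*Col27a1*). With no filter beyond 1 count the interaction gave 3, and without replicate 4 of both control groups and of Notch2 TNFα, a setting chosen after seeing the data, 1. Interaction calls over all genes rose as well, from 57 higher and 44 lower to 135 and 131 and to 121 and 74 in these settings. Leaving out each library in turn gave 6 to 7 with TNFα in control cells, 5 to 8 in Notch2 cells (8 without Notch2 TNFα replicate 4), 9 to 9 and 8 to 10 between genotypes with vehicle and TNFα, and 0 to 0 for the interaction. With the replicate number as a block the counts were 7 and 6 with TNFα in control and Notch2 cells, 9 and 7 between genotypes with vehicle and TNFα, and 0 for the interaction. Under the block, *Col27a1* (-0.92, edgeR adjusted p = 0.080) and *Col3a1* (0.22, edgeR adjusted p = 0.099) lost their call between genotypes with TNFα, and the numbers do not pair the samples.

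Signs turned only for values near 0: *Col9a3* with TNFα in control cells (-0.018 to 0.077 leaving out each library, the lowest without control TNFα replicate 4), *Col1a2* with TNFα in Notch2 cells (-0.0036 without Notch2 vehicle replicate 3, and -0.0076, -0.0064 and -0.029 without Notch2 TNFα replicates 1, 2 and 3, and up to 0.098 without replicate 4), *Col3a1* in the same comparison (-0.0053 without Notch2 TNFα replicate 3, and up to 0.13 without replicate 4) and the interaction of *Col3a1* (-0.097 without Notch2 vehicle replicate 3 to 0.038 without Notch2 TNFα replicate 4, and 0.042 without those 3 libraries). Over the alternatives run, 119 of 126 values of the cartilage collagens between genotypes with vehicle and 118 of 126 with TNFα kept their direction and call, from -0.72 to -0.53 and from -1.06 to -0.71. With the longest transcript as length, the cartilage to fibroblast ratio was 1.53, 0.849, 1.15 and 0.513 in control vehicle, Notch2 vehicle, control TNFα and Notch2 TNFα libraries. Depth was lowest in Notch2 TNFα replicate 4, which limits the precision of that group. The cause of these changes was not tested.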
